A study of Mus musculus with 6 samples.

Results

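The genes described here were the cytosolic ribosomal proteins of the mouse and their paralogs. They were taken by symbol from a table of 18169 genes (names of the form *Rpl* or *Rps* with a number, *Rplp0* to *Rplp2*, and *Rpsa*), which gave 85 genes. Of these, 53 belong to the large subunit and 32 to the small subunit. As canonical genes 77 were counted, and 8 were paralogs, copies whose symbols end in l, l1 or al (*Rpl3l*, *Rpl7l1*, *Rpl10l*, *Rpl22l1*, *Rpl32l*, *Rpl36al*, *Rpl39l* and *Rps27l*). A filter on low counts left 81 of the 85 for testing, 49 of the large and 32 of the small subunit. The 4 that it removed were the paralogs *Rpl3l*, *Rpl10l*, *Rpl32l* and *Rpl39l*.

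The study asked how Sonic hedgehog (Shh), a secreted signaling protein, acts on hepatocytes in fatty liver disease. For the libraries used here, Hepa 1–6 cells, an established line derived from a mouse liver tumor, received Shh (3 libraries) or vehicle (3 libraries), and poly(A) RNA was sequenced with single 50-base reads. The labels give neither the dose of Shh nor the time of treatment. They also leave unsaid if each library is a culture of its own, so p-values measure only the spread between these libraries, which may be technical. All 6 libraries are of 1 cell line.

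Library totals were 20253781 to 20291075 counts in the Shh libraries and 20278619 to 20335463 in the vehicle libraries. The hepatocyte markers *Alb*, *Afp*, *Trf* and *Hnf4a* were abundant in every library, whereas *Apoa1* averaged 2.79 CPM with Shh and 3.23 CPM with vehicle, *Ttr* stayed under 1 CPM (counts scaled to library size) and *Serpina1a* was at or near 0. The summed level of 9 hepatocyte markers was 2231, 2122 and 2130 CPM in Shh replicates 1, 2 and 3, against 2242, 2211 and 2227 CPM in vehicle replicates 1, 2 and 3. The 5 stellate cell or fibroblast markers summed to 50.6, 16.8 and 15.7 CPM in the Shh libraries, against 19.0, 33.0 and 27.3 CPM in the vehicle libraries, with *Lrat* at or near 0. The 4 macrophage markers summed to 15.3 to 24.4 CPM with Shh and 18.6 to 19.7 CPM with vehicle, the 4 endothelial markers to 1.23 to 2.72 CPM and 1.14 to 2.34 CPM, and the 3 lymphocyte markers to 0.147 to 2.18 CPM and 0.349 to 0.495 CPM. The highest stellate cell, macrophage, endothelial and lymphocyte sums were all in Shh replicate 1 (50.6, 24.4, 2.72 and 2.18 CPM). The ribosomal protein levels of this library were not the lowest of the Shh libraries for any of the 81 genes. The part of these markers in the values below was not tested.

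Ribosomal proteins join ribosomal RNA in the nucleolus to form a large subunit, which makes the peptide bond, and a small subunit, which reads the mRNA. Growing cells make the mRNAs of all of them in large and balanced amounts, and most of these mRNAs begin with a cytosine followed by a run of pyrimidines (a terminal oligopyrimidine, or TOP, tract), through which the kinase mTOR controls their translation. A few mammalian genes have a second copy that encodes a closely related protein, often used in particular tissues.

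A pyrimidine tract, a C followed by at least 5 letters that are each C or T on the transcribed strand, was searched within 25 bases of the annotated start in RefSeq promoter windows of build GRCm38.p6. Of the members, 65 had a window. The tract was found in 43 of them (66.2%), against 10412 of all 27025 genes with a window of the same length (38.5%). A gene with several windows was counted if any of them held the tract. Of the 8 paralogs 4 held it, and of the 57 canonical genes with a window 39. The motif TATAA was found in the 50 bases before the start in 5 members (7.7%) and in 5.9% of all genes with a window. The 30 bases from 12 before the annotated start are shown for *Rpl28* and *Rps10*, whose p were small in the comparison of Shh with vehicle, for *Rpl38*, whose start lies in such a tract, and for the paralogs that were measured, beside their canonical genes where a window was given. They are in lower case, with the longest tract in capitals where these bases hold one. *Rpl28* and *Rpl38* each also hold a shorter one, left in lower case. *Rpl28* lies at chr7:4792953-4792982 (plus strand), *Rps10* at chr17:27635227-27635256 (minus), *Rpl38* at chr11:114668568-114668597 (plus), *Rps27* at chr3:90213631-90213660 (minus), *Rps27l* at chr9:66946074-66946103 (plus), *Rpl22* at chr4:152325714-152325743 (plus), *Rpl22l1* at chr3:28805496-28805525 (plus), *Rpl36a* at chrX:134585642-134585671 (plus), *Rpl36al* at chr12:69184050-69184079 (minus) and *Rpl7l1* at chr17:46782639-46782668 (minus).
Rpl28: cctctcgtgtCTCTCTTTCCgtctccggcc
Rps10: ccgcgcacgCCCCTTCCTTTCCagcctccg
Rpl38: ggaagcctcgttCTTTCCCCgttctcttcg
Rps27: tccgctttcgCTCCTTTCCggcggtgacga
Rps27l: CTCCTCCCCgccgcctctatcccggaagtt
Rpl22: gccctgggaaaagcaatagctggccgatcg
Rpl22l1: cggcgcaagcccgttCTCTTCCCacggctg
Rpl36a: cacccaggcaccgcctataaacttccgttg
Rpl36al: tcccgtcgctcaggttcagttccgacttcc
Rpl7l1: aggctgcgcaagcgcagtagctgaagcacc
The tract of *Rps27* stood at the annotated start, that of its paralog *Rps27l* before it, and *Rpl22l1* had one where *Rpl22* showed none in these 30 bases.

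Ribosomal protein mRNAs were among the most abundant in these cells. They took 8.71, 7.57 and 8.56% of all counts in Shh replicates 1, 2 and 3, against 9.03, 8.95 and 8.87% in vehicle replicates 1, 2 and 3. Shh replicate 2 was the lowest, and each Shh library lay below each vehicle library. Per length, in the deposited TPM (transcript levels scaled for length), the 85 genes made up 20.9, 19.2 and 20.9% of the Shh libraries and 21.5, 21.3 and 21.3% of the vehicle libraries. Of the 100 genes with the highest mean TPM, 52 were ribosomal protein genes in Shh cells and 52 in vehicle cells.

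The level per length differed widely between the members. The canonical genes had a median of 2248 TPM with Shh and 2348 TPM with vehicle, and 64 and 63 of the 77 lay between 500 and 5000 TPM. The highest was *Rpl41*, which encodes the smallest of the ribosomal proteins, with 12421, 10706 and 11954 TPM in the Shh libraries and 12893, 12901 and 12711 TPM in the vehicle libraries. *Rps26*, a protein beside the mRNA exit channel, followed with 10168, 9519 and 9491 TPM against 10090, 10076 and 9908 TPM. The ranges of these genes were apart in Shh cells and in vehicle cells. *Rps2*, at the mRNA entry, was next with 7488, 7244 and 7306 TPM in Shh cells and 7510, 7521 and 7370 TPM in vehicle cells. *Rplp0*, the base of the ribosomal stalk, and *Rpl23a*, at the exit of the peptide tunnel, followed. *Rplp0* was at 5701 ± 45.8 TPM in Shh cells and 5894 ± 60.0 TPM in vehicle cells, and *Rpl23a* at 5700.5 ± 303 TPM in Shh cells and 5825 ± 54.2 TPM in vehicle cells (SD, n = 3 each). Within each group the ranges of *Rplp0* and *Rpl23a* overlapped. The same 10 members were highest in both groups.

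**Figure D1:**
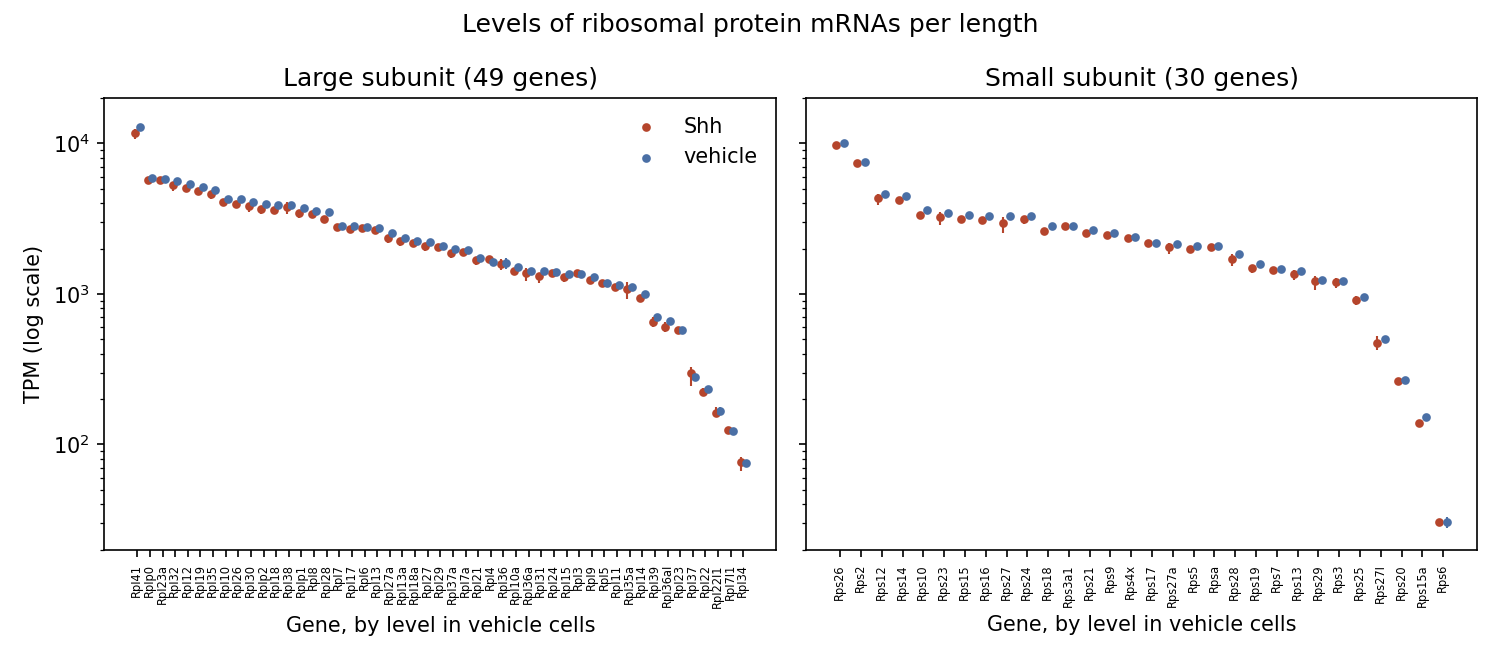
Mean levels of tested ribosomal protein mRNAs in TPM (vertical axis, log scale) for the large subunit (left) and the small subunit (right), with genes ordered by their level in vehicle cells; points are means of 3 libraries of Shh (red) or vehicle (blue) cells and lines run from the lowest to the highest library. Most genes lie between 500 and 5000 TPM in both groups, *Rpl41* is highest at 11694 TPM with Shh and 12835 TPM with vehicle, and *Rps6* is lowest at 30.5 and 30.3 TPM.

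At the low end, levels per length depended on how reads and lengths were assigned. *Rps6*, the protein phosphorylated by S6 kinase, was listed at 31.9, 31.1 and 28.5 TPM with Shh and 27.8, 30.5 and 32.7 TPM with vehicle. Of the 50-base windows in its transcripts, 84.6% also occur in *Rps6-ps4*, to which 29611 to 34054 counts were assigned in Shh libraries and 33677 to 34695 in vehicle libraries, against 469 to 534 and 471 to 550 counts for *Rps6* itself. *Rpl34* had 24.6 ± 3.48 CPM with Shh and 25.3 ± 0.229 CPM with vehicle (SD, n = 3 each), while its near-identical copy *Rpl34-ps1* had 471 to 587 CPM and 605 to 613 CPM. *Rps15a* and *Rps20* were low per length because of the length behind their values, 5087 and 3397 bases, which is that of long annotated transcripts. In CPM they were at 419 ± 40.7 and 529 ± 52.4 with Shh and at 481 ± 12.2 and 569 ± 17.0 with vehicle (SD, n = 3 each).

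The mRNAs of both subunits lay slightly lower in Shh-treated than in vehicle-treated cells, and no single gene passed the test. In bulk RNA, fewer cells with these mRNAs and less of them per cell cannot be told apart. By the quasi-likelihood test of edgeR on counts normalized by the trimmed mean of M-values (TMM), 0 of the 81 genes had an adjusted p under 0.05 (smallest adjusted p = 0.469, Benjamini-Hochberg over 12286 genes), as did 0.0% of all genes tested. The log2 fold change of Shh over vehicle was below 0 for 80 of the 81, against 48.8% of all genes, and its median was -0.14, against 0.0028 for all genes. At an unadjusted edgeR p under 0.05, 41 members were lower and 0 higher, against 5.56% and 4.83% of all genes. For 46 members every Shh library lay below every vehicle library, against 8.67% of all genes, and the reverse held for 0 members, against 6.79%. The values were small, from -0.24 to 0.025, and *Rpl37* was the one member above 0.

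**Figure D2:**
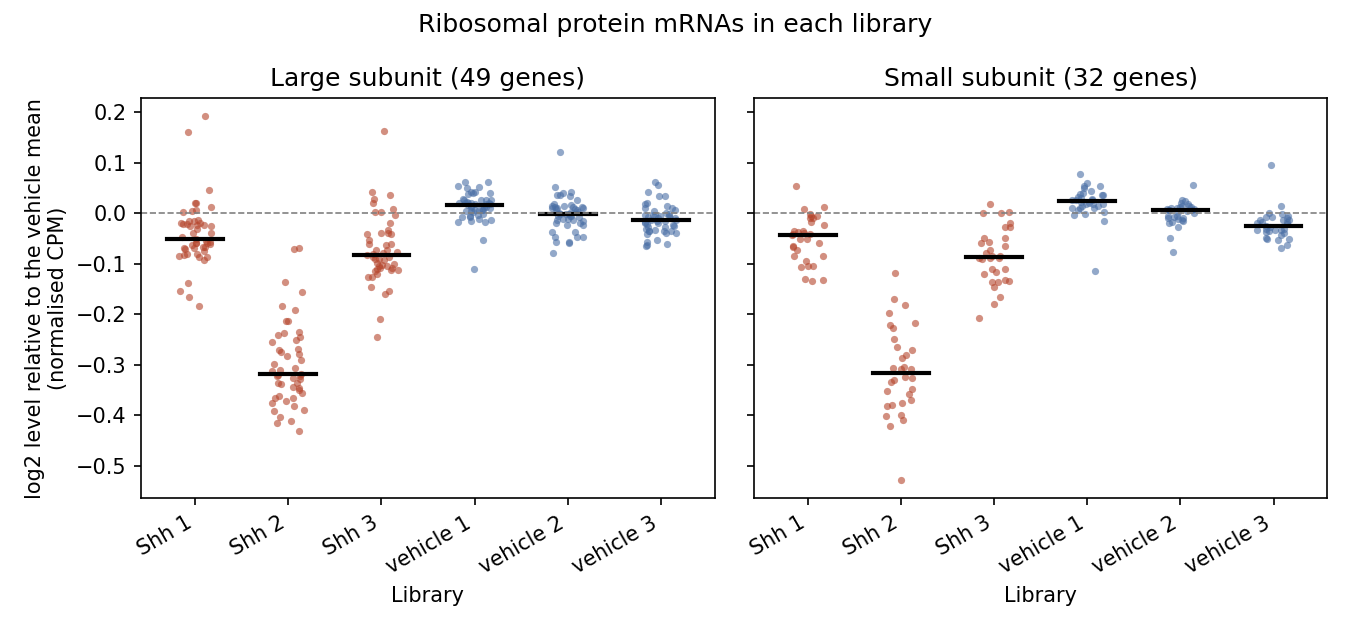
Level of each of the 81 tested ribosomal protein mRNAs in each library (horizontal axis), as the log2 of normalized CPM relative to the gene's mean over the vehicle libraries (vertical axis), for large and small subunit genes; each point is 1 gene and the bar is the median. All points of Shh replicate 2 lie below 0, the medians of Shh replicates 1 and 3 over both subunits are at -0.047 and -0.085, and the vehicle libraries lie around 0.

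The size of the difference was set largely by 1 library. Relative to the vehicle mean, the 81 genes in Shh replicate 2 lay between -0.53 (*Rps27*) and -0.069 (*Rpl4*) on the log2 scale, all below 0. In each of Shh replicates 1 and 3, 69 of the 81 lay below 0, and in the vehicle libraries 16, 38 and 65. Shh replicate 2 held the lowest of the 6 levels for 79 members and Shh replicate 3 for the other 2. Without Shh replicate 2, 75 of the 81 were still below 0, the median was -0.061, and 35 members had an unadjusted edgeR p under 0.05 in the lower direction, against 3.67% of all genes. All of these 35 were among the 41, and 1 member, *Rpl37*, was higher at that p, with a log2 fold change of 0.18.

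Without Shh replicate 1, the median was -0.19 and 8 members were lower at an adjusted p under 0.05 in edgeR, among them *Rpl10a*, *Rpl18*, *Rpl28*, *Rpl41*, *Rps10* and *Rps16* (adjusted p = 0.0354 to 0.0481), against 0.686% of all genes. At an unadjusted p 68 members were lower in that fit, against 10.4% of all genes. Without Shh replicate 3 there were 50 (against 5.36% of all genes), without vehicle replicate 1 only 16 (2.58%), without vehicle replicate 2 there were 24 (2.93%) and without vehicle replicate 3 there were 30 (4.34%). With the replicate number as a block there were 51 (6.08%), and with the block and an offset for length 22 (4.18%). The share of the members was above that of all genes in each of these fits. DESeq2 called 3 members lower, among them *Rpl28* and *Rps10* (adjusted p = 0.00495 and 0.0252), among the 615 genes that its own filter on mean counts kept, of which it called 0.976%, and it called 0 members when that filter was switched off.

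The mRNAs of the stalk proteins, which recruit the translation factors that split GTP, had a median log2 fold change of -0.18. It was -0.094 without Shh replicate 2 and -0.050 with an offset for length. *Rplp0*, which anchors the stalk, had 4632, 4161 and 4497 CPM in the Shh libraries, against 4821, 4891 and 4768 CPM in the vehicle libraries. *Rplp1* had 921, 752 and 897 CPM with Shh and 983, 997 and 927 CPM with vehicle. *Rplp2*, its partner, had 948, 779 and 928 CPM with Shh and 1006, 1029 and 976 CPM with vehicle. For each of them all Shh libraries lay below all vehicle libraries, as for 46 of the 81 members and 8.67% of all genes. Their log2 fold changes were -0.12 (standard error 0.045), -0.18 (0.066) and -0.18 (0.064), with an unadjusted p of 0.0173, 0.0184 and 0.0140 in edgeR and an adjusted p of 0.469 for each. Of the 50-base windows of *Rplp2*, 28.0% also occur in transcripts annotated to *Wdr89*.

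Among the other large subunit genes, *Rpl28* had the smallest p. It had 885, 779 and 842 CPM in the Shh libraries, against 988, 999 and 936 CPM in the vehicle libraries. The groups did not overlap, and here Shh replicates 1 and 3 were also well under the lowest vehicle library. The log2 fold change was -0.22 (standard error 0.050, unadjusted p = 0.000778 and adjusted p = 0.469 in edgeR), and it was -0.17 without Shh replicate 2. *Rpl18* had 1448, 1231 and 1388 CPM with Shh and 1564, 1545 and 1499 CPM with vehicle. *Rpl10a*, the protein of the L1 stalk beside the exit site of tRNA, had 722, 610 and 677 CPM with Shh and 763, 742 and 756 CPM with vehicle. *Rpl8*, near the peptidyl transferase center, had 1712, 1522 and 1664 CPM with Shh and 1826, 1883 and 1742 CPM with vehicle. In these 3 genes the groups did not overlap either, and their log2 fold changes were -0.18, -0.17 and -0.15. These 3 and *Rpl28* were among the genes chosen for a small p in these same libraries, which favors such a separation. Every Shh library lay below every vehicle library in 46 of the 81 members and 8.67% of all genes.

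*Rpl5* and *Rpl11*, which enter the ribosome together with 5S RNA and bind Mdm2 when ribosome assembly is disturbed, were both less separated. *Rpl5* had 797, 686 and 806 CPM with Shh and 801, 809 and 814 CPM with vehicle, a log2 fold change of -0.083. *Rpl11* had 656, 544 and 622 CPM with Shh and 667, 660 and 636 CPM with vehicle, at -0.11. In each, Shh replicate 2 stood apart and another Shh library lay within the vehicle range. *Rpl10*, which joins the large subunit as one of its last proteins, had 1903, 1632 and 1835 CPM with Shh and 2000, 1968 and 1978 CPM with vehicle, without overlap and at -0.15. *Rpl13a*, which is also part of a complex that silences inflammatory mRNAs in human monocytes, had 1394, 1148 and 1371 CPM against 1453, 1447 and 1398 CPM, at -0.14. *Rpl38*, known for its part in the translation of Hox mRNAs in mouse embryos, had 683, 519 and 642 CPM with Shh and 690, 635 and 659 CPM with vehicle. Its groups overlapped, and its log2 fold change of -0.11 was 0.0024 without Shh replicate 2.

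*Rpl41* had 3059, 2406 and 2871 CPM with Shh and 3245, 3230 and 3146 CPM with vehicle, with no overlap and a log2 fold change of -0.21. *Rpl23a* had 1832, 1537 and 1817 CPM against 1892, 1858 and 1827 CPM, with overlap and at -0.11. *Rpl4*, which lines the peptide tunnel, had 1413, 1329 and 1430 CPM with Shh and 1377, 1378 and 1427 CPM with vehicle. It lay nearest to 0 of all members, at -0.0032 (standard error 0.042), with 2 Shh libraries inside or above the vehicle range and only Shh replicate 2 below it. *Rpl37* had 163, 113 and 160 CPM with Shh and 137, 144 and 147 CPM with vehicle, so that Shh replicates 1 and 3 were above all vehicle libraries and Shh replicate 2 below them, at 0.025 (standard error 0.10).

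Of the small subunit, *Rps10*, a protein of the head near the mRNA entry that is mutated in some patients with Diamond-Blackfan anemia, had 1078, 954 and 1023 CPM with Shh and 1208, 1150 and 1119 CPM with vehicle, at -0.19 (standard error 0.050, adjusted p = 0.469 in edgeR). The groups did not overlap, and without Shh replicate 2 the value was -0.14. *Rps15*, at the decoding side of the subunit, had 944, 804 and 907 CPM with Shh and 1008, 989 and 982 CPM with vehicle, at -0.17. *Rps18* had 781, 659 and 778 CPM with Shh and 862, 824 and 832 CPM with vehicle, at -0.18. *Rps15a* had 447, 372 and 438 CPM with Shh and 486, 490 and 467 CPM with vehicle, at -0.20. All 3 showed no overlap. They and *Rps10* were among the genes chosen for a small p in these same libraries, which favors such a separation. Every Shh library lay below every vehicle library in 46 of the 81 members and 8.67% of all genes.

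*Rps19*, the gene most often mutated in Diamond-Blackfan anemia, had 477, 397 and 480 CPM with Shh and 522, 514 and 492 CPM with vehicle, without overlap and at -0.17. *Rps26* had 2498, 2134 and 2274 CPM with Shh and 2533, 2517 and 2446 CPM with vehicle, with Shh replicate 1 inside the vehicle range and at -0.12. *Rpsa*, known also as the laminin receptor, had 2284, 2073 and 2257 CPM with Shh and 2347, 2374 and 2330 CPM with vehicle, without overlap and at -0.092. *Rps3*, in the mRNA entry channel and also an endonuclease of DNA repair, lay among the genes that rested on 1 library. It had 1388, 1123 and 1395 CPM with Shh and 1418, 1378 and 1379 CPM with vehicle, and its value of -0.096 was -0.00095 without Shh replicate 2. *Rps27a*, made as a fusion with ubiquitin, had 884, 706 and 899 CPM with Shh and 926, 926 and 897 CPM with vehicle, at -0.14 with overlap. *Rps2* had 4380, 3866 and 4167 CPM against 4489, 4473 and 4332 CPM, at -0.099, and *Rps12* had 1316, 1036 and 1304 CPM against 1388, 1342 and 1318 CPM, at -0.15. *Rps20*, on the head of the subunit, had 574, 472 and 541 CPM with Shh and 580, 579 and 550 CPM with vehicle, with overlap and at -0.11.

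The other 39 tested members, not described one by one, averaged 245 to 1997 CPM with Shh and 265 to 2236 CPM with vehicle. Their log2 fold changes lay between -0.19 and -0.076. In 24 of them every Shh library lay below every vehicle library, against 8.67% of all genes, 20 were lower at that unadjusted p, against 5.56%, and 36 stayed below 0 without Shh replicate 2.

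The ratio of the summed levels of the subunits was nearly the same in all libraries. Of the 49 large subunit genes, 25 were lower at that unadjusted p and 27 had no overlap, with a median log2 fold change of -0.14. Of the 32 small subunit genes, 16 were lower and 19 had no overlap, with a median of -0.14. Of all genes, 5.56% were lower at that p and 8.67% had all Shh libraries below all vehicle libraries. The ratio of the summed CPM of the large to that of the small subunit was 1.65, 1.64 and 1.65 in Shh replicates 1, 2 and 3, against 1.64, 1.65 and 1.66 in vehicle replicates 1, 2 and 3. The log2 of this ratio differed by -0.0051 between Shh and vehicle, within the spread between libraries (pooled SD 0.0078). Shh replicate 2, with the lowest levels of both subunits, thus had nearly the same ratio as the other libraries. The mean log2 level of large minus small subunit genes was 0.045, 0.049 and 0.049 in the Shh libraries, against 0.028, 0.034 and 0.047 in the vehicle libraries. By this measure the difference between Shh and vehicle was 0.011, of opposite sign.

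Of the paralogs, 4 could be compared with their canonical genes, by an exact test that cannot go below p = 0.1 with 3 libraries against 3, so that no pair could pass it. *Rpl22l1*, which takes the place of *Rpl22* in mice that lack it, was at 40.8, 38.5 and 46.4 CPM with Shh and 46.4, 43.3 and 47.6 CPM with vehicle. *Rpl22*, an RNA-binding protein needed for T cell development in mice, was at 300, 250 and 305 CPM with Shh and 317, 314 and 311 CPM with vehicle. Per length, *Rpl22l1* made up 40.0, 42.9 and 42.6% of the pair's TPM in Shh cells and 41.7, 40.3 and 42.8% in vehicle cells, the highest share of the 4 paralogs. This share rests on lengths of 438 bases for *Rpl22l1* and 2141 for *Rpl22*. In CPM the highest of the 4 ratios was that of *Rpl36al* to *Rpl36a*, with a mean log2 of -1.10 with Shh and -1.02 with vehicle. For *Rpl22l1* to *Rpl22* the means were -2.76 and -2.78. The log2 ratio of the CPM of *Rpl22l1* to that of *Rpl22* differed by 0.014 between Shh and vehicle (two-sided exact permutation test, p = 0.9, adjusted over 4 pairs 0.9).

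*Rps27l*, a target of p53, was at 133, 110 and 145 CPM with Shh and 149, 144 and 143 CPM with vehicle, with Shh replicate 3 inside the vehicle range. *Rps27* was at 558, 424 and 574 CPM with Shh and 635, 610 and 590 CPM with vehicle, without overlap and at -0.24 (standard error 0.088). *Rps27l* held 13.2, 14.2 and 14.0% of the pair's TPM with Shh and 13.0, 13.1 and 13.4% with vehicle, and the log2 ratio differed by 0.074 (exact permutation p = 0.2, adjusted 0.267).

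*Rpl36al* was at 170, 146 and 182 CPM with Shh and 200, 189 and 191 CPM with vehicle. Of the 4 tested paralogs it was the one without overlap between the groups and with an unadjusted edgeR p under 0.05 (log2 fold change -0.22, standard error 0.066, unadjusted p = 0.00564 and adjusted p = 0.469). Of the 77 canonical members, 45 had every Shh library below every vehicle library, against 8.67% of all genes. At that unadjusted p 40 of the 77 were lower, against 5.56% of all genes. *Rpl36a* was at 379, 301 and 392 CPM with Shh and 402, 379 and 393 CPM with vehicle, at -0.13 and with overlap. *Rpl36al* had 29.7, 31.4 and 30.3% of the pair's TPM with Shh and 31.9, 31.9 and 31.4% with vehicle. The log2 ratio differed by -0.084 between Shh and vehicle, with no overlap of the libraries, and its p is the smallest that 3 against 3 allows (exact permutation p = 0.1, adjusted 0.2).

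*Rpl7l1*, whose yeast relative works in ribosome assembly and not in the finished ribosome, was at 192, 178 and 196 CPM with Shh and 193, 197 and 195 CPM with vehicle, at -0.050. *Rpl7* was at 1505, 1372 and 1525 CPM with Shh and 1588, 1559 and 1557 CPM with vehicle, at -0.095. *Rpl7l1* took 4.24, 4.28 and 4.25% of the pair's TPM with Shh and 4.04, 4.19 and 4.16% with vehicle. Its log2 ratio to *Rpl7* differed by 0.046, again with no overlap of the libraries (exact permutation p = 0.1, the smallest possible, adjusted 0.2), and by -0.050 with an offset for transcript length (exact permutation p = 0.4). *Rpl7l1* values rest on a length of 2557 bases, against 885 for *Rpl7*.

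**Figure D3:**
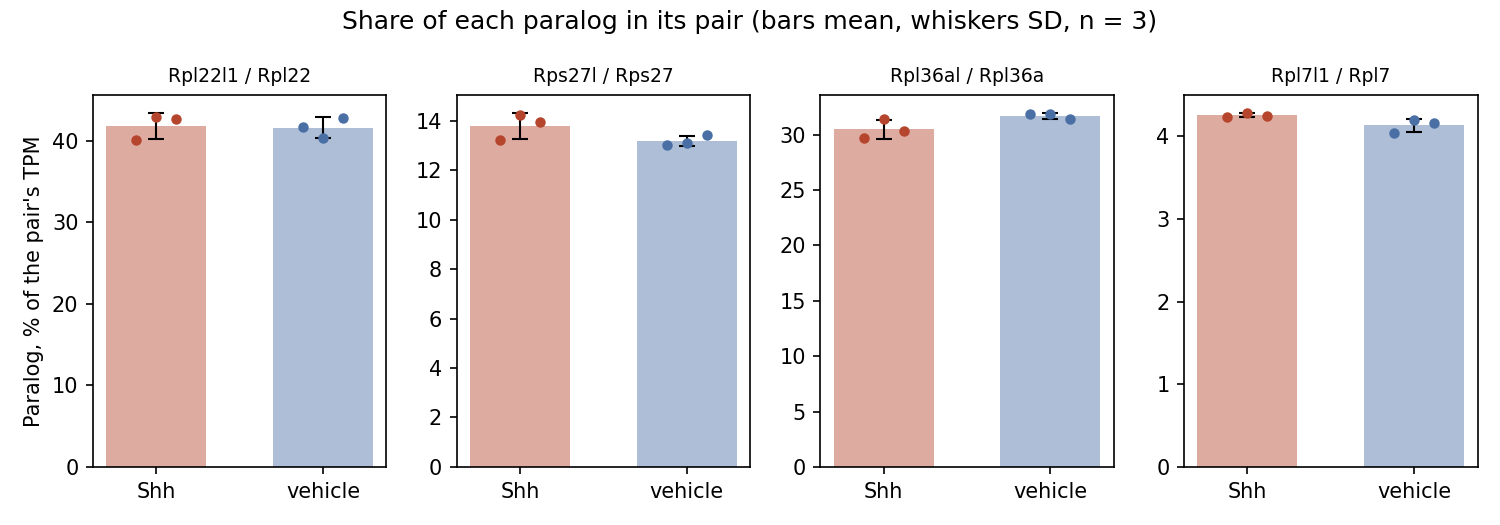
Share of each paralog in the TPM of its pair (vertical axis, percent, with its own scale in each panel starting at 0) in Shh and vehicle cells; points are libraries, bars are means and whiskers are SDs of 3 libraries. The shares are near 42% for *Rpl22l1*, 14% for *Rps27l*, 31% for *Rpl36al* and 4% for *Rpl7l1*, with little distance between the groups.

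The other 4 paralogs were at or near 0. *Rpl10l* and *Rpl39l*, which are used in the testis, had 1 count in 1 library each, a Shh library for *Rpl10l* and a vehicle library for *Rpl39l*. *Rpl3l*, of heart and skeletal muscle, had 2.87, 1.89 and 1.09 counts with Shh and 5.33, 3.60 and 6.16 counts with vehicle. *Rpl32l* had 3.82, 11.7 and 4.80 counts with Shh and 3.62, 4.84 and 4.78 counts with vehicle. Their canonical genes were abundant. *Rpl3*, near the peptidyl transferase center, had 1096, 1001 and 1122 CPM with Shh and 1120, 1112 and 1114 CPM with vehicle, *Rpl39*, which lines the peptide tunnel, had 153, 129 and 163 CPM against 177, 170 and 163 CPM, and *Rpl32* had 1556, 1225 and 1475 CPM against 1637, 1599 and 1532 CPM. For *Rpl3l* every Shh library lay below every vehicle library, with few counts in each. When no filter was applied, *Rpl3l* had an adjusted p of 0.655 in edgeR and the other 3 had one of 0.756 to 0.773.

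Some members share 50-base windows of their annotated transcripts with near-identical copies, and their levels are uncertain. Of the tested members 66 share no 50-base window with another of the 18169 genes. Transcripts of genes outside these were not compared. When the counts of 5 members were summed with those of their copies, a step chosen after the data had been seen, *Rps27* with *Rps27rt* was at -0.23, *Rpl31* with *Rpl31-ps12* at -0.18, *Rpl34* with *Rpl34-ps1* at -0.17, *Rps6* with *Rps6-ps4* at -0.12 and *Rpl37* with *Rpl37rt* at -0.11. The 2 members whose own values lay at or above -0.05 among these, *Rpl34* (-0.042) and *Rpl37* (0.025), hold 3.51 to 4.87% and 10.7 to 13.0% of the counts of their pairs. *Rpl37* and *Rpl37rt* summed to 1253, 1008 and 1230 CPM in Shh libraries and 1280, 1252 and 1232 CPM in vehicle libraries, and Shh replicate 1 lay inside the vehicle range. After this step all 81 members had a value below 0.

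Further ribosomal proteins whose symbols have another form lay at similar values. *Fau*, a ubiquitin-like protein fused to Rps30, had 904, 706 and 837 CPM with Shh and 941, 917 and 887 CPM with vehicle, at -0.17. *Rack1*, a signaling scaffold on the small subunit, had 2039, 1845 and 2021 CPM with Shh and 2126, 2162 and 2103 CPM with vehicle, at -0.11. The groups overlapped for *Fau* and not for *Rack1*, and both had an unadjusted p under 0.05, with an adjusted p of 0.473 and 0.469 in edgeR. Of all genes, 8.67% had every Shh library below every vehicle library and 5.56% were lower at that unadjusted p. Without Shh replicate 2, *Fau* was at -0.072 and *Rack1* at -0.069.

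Other genes of protein synthesis lay nearer to 0. Of 16 elongation factors and other mRNAs with TOP tracts, 13 were below 0, 3 were lower at an unadjusted edgeR p under 0.05 and 0 higher, with a median of -0.050, against 48.8% of all genes below 0 and 5.56% lower. The 3 were *Eef1g* (1660, 1625 and 1645 CPM with Shh and 1756, 1799 and 1783 CPM with vehicle), *Eef1b2* (-0.14), both of the factor that recharges the elongation factor with GTP, and *Btf3* (-0.12), a chaperone of nascent chains. *Eef1g*, at -0.11, was lower by a like amount in all Shh libraries, and Shh replicate 2 was not apart from the others there. Of 33 ribosome biogenesis genes, 16 were below 0, 2 were lower at an unadjusted p under 0.05 and 0 higher, with a median of 0.023, against 48.8% of all genes below 0 and 5.56% lower, so these shares were near those of all genes. Those 2 were *Eif6*, which keeps the subunits apart (-0.10), and *Nhp2*, of the pseudouridine guide complexes (-0.12). *Nop10*, of the same complexes, was also at -0.12 and missed that p. Of 7 chaperones that hold single ribosomal proteins before assembly, 6 were below 0 with a median of -0.084, and *Pdcd2l* (-0.17) and *Aamp* (-0.11) were lower at an unadjusted p under 0.05, against the same shares of all genes, 48.8% and 5.56%. The chaperones *Pdcd2*, *Heatr3* and *Tsr2*, of Rps2, Rpl5 and Rps26, were at -0.10, 0.060 and -0.084. No gene of these lists passed at an adjusted p under 0.05.

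**Figure D4:**
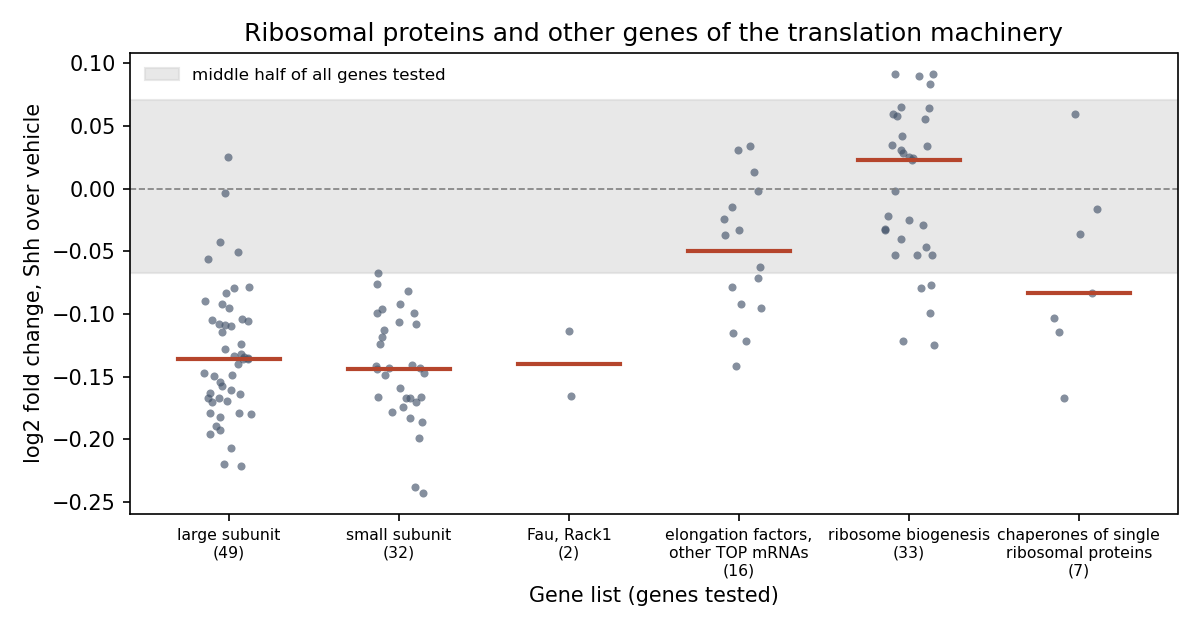
Log2 fold change of Shh over vehicle (vertical axis) for each tested gene of 6 lists of the translation machinery (horizontal axis, number of genes in brackets); points are genes, red bars are medians, and the grey band runs from the lower to the upper quartile of all 12286 genes tested. Both subunits have a median of -0.14 and lie mostly under the band, which spans -0.067 to 0.071, whereas the ribosome biogenesis genes lie around 0.023.

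The fold changes moved with transcript length, and ribosomal protein mRNAs are short. The 81 genes had a median length of 676 bases, against 2689 for the 11471 genes tested that had a recovered length. Across genes, which are not independent replicates, Spearman's rho between length and log2 fold change was 0.54 over 11471 genes and 0.41 over the 81 members. Within the members, rho between length and the level relative to the vehicle mean was 0.53 for Shh replicate 2, 0.25 for Shh replicate 1 and 0.097 for Shh replicate 3. The 40 shorter members had a median log2 fold change of -0.17 and the 41 longer ones of -0.12. The level of a member was nearly unrelated to its fold change (rho -0.049).

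When a smooth trend with length was fitted in each library and used as an offset, 66 of the 81 members were below 0, with a median of -0.041, against -0.0036 for all genes. At the same unadjusted p, 18 members were then lower and 0 higher, against 3.47% of all genes lower, and 15 of these were among the 41. *Rpl28* was at -0.090 and *Rpl36al* at -0.092. *Rps15a* was at -0.25, with an offset taken at the 5087 bases behind its values, the length of a long annotated transcript. *Rps26*, *Rpl38*, *Rpl23a* and *Rpl3* were then above 0, at 0.017, 0.040, 0.017 and 0.0042. The elongation factor list had a median of 0.00052 after the offset, and the biogenesis list one of 0.0054.

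**Figure D5:**
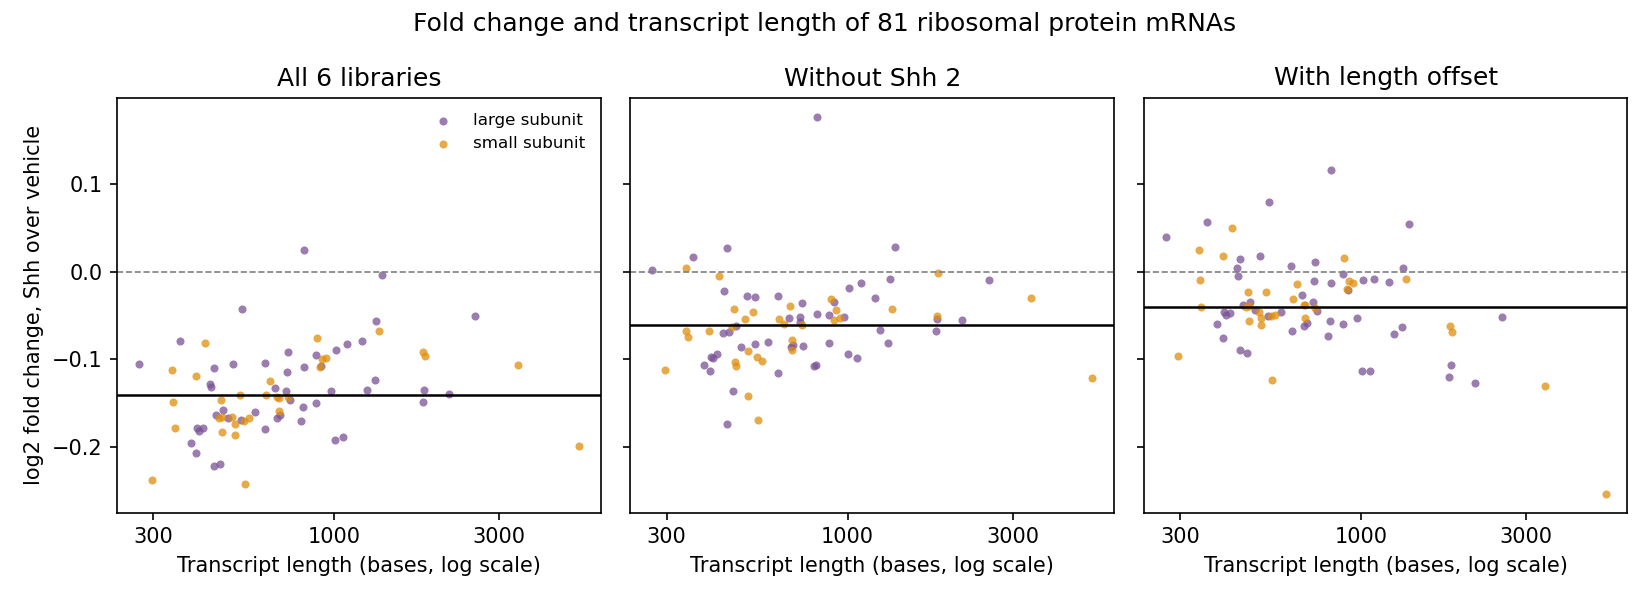
Log2 fold change of Shh over vehicle (up the page) against the length of the transcript (bases, logarithmic scale across the page) for the 81 tested members, in 3 panels, with all 6 libraries, with Shh replicate 2 left out, and after the offset for length; points are genes colored by subunit, the black line is the median and the dashed line 0. The median lies at -0.14, -0.061 and -0.041 in the 3 panels.

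On the deposited TPM scale, 75 of the 81 members had a lower mean with Shh, with a median log2 ratio of -0.069, while all genes had a median of 0.079. Every Shh library lay below every vehicle library in TPM for 27 members, against 2.51% of all genes, and the reverse held for 0 members, against 16.9%. The 6 members with a higher mean TPM with Shh were *Rpl3*, *Rpl4*, *Rpl7l1*, *Rpl34*, *Rpl37* and *Rps6*. Relative to all genes the median of the members was -0.15 on this scale. The median of the members was below 0 in CPM, in TPM and with the length offset, and smaller in size on the last 2.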

How the data were processed

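RNA libraries from Hepa 1–6 cells, 3 with Shh and 3 with vehicle, were analyzed. The authors deposited an estimated count for each gene (47 of the 85 members had whole values in every library, and 36.4% of positive values were not whole), FPKM values, which the authors scaled by length and library total, and TPM values, which the authors scaled to a fixed sum per library. The submitters' processing notes name Bowtie2. The counting tool, build and annotation were not given in the sources used here. In addition, the series' design text speaks of liver exosomes, while the labels name the cell line, which was followed.

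Estimated counts were rounded and tested with edgeR 4.0.16 in R 4.3.3 (TMM, filterByExpr at a count of 10 and a total of 15, quasi-likelihood test, no covariate), with Benjamini-Hochberg adjustment at 0.05 over all genes. CPM are relative to the TMM-adjusted library size. Lengths were recovered from counts and FPKM of at least 0.5. Shared 50-base windows, the read length, were counted on the sense strand in GENCODE M21 transcripts of the 18169 genes, matched by gene ID. Of the gene IDs, 18117 of 18169 were found in RefSeq, and all 85 members. Promoter letters are from RefSeq, build GRCm38.p6. Genes on chromosome 18 are shown without sequence. The edgeR fit was tested on simulated data.

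The members and lists were chosen with earlier results of these data known. Named genes were the paralogs and their canonical genes, the 5 of each subunit with the smallest p, members of opposite sign to the median and the 2 nearest 0, the 3 highest and 3 lowest in FPKM per subunit, members of a known role, ribosomal proteins with symbols of another form (*Fau* and *Rack1*), and up to 3 genes of each other list with the smallest p. *Heatr3*, *Tsr2*, *Rps16*, *Rpl31* and the genes sharing windows were named after their values were seen, as were the promoters shown and the motif chosen. The alternatives run were upper-quartile factors, DESeq2 1.42.0, no filter, a filter of 5 CPM in 3 libraries, the replicate number as a block, a length offset (5 degrees of freedom per library), leaving out each library, FPKM for the ratios, and, added after the data had been seen, summed copies and DESeq2 without its own filter. Some genes that this rule covers are not reported here.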

Additional observations from a re-analysis of the deposited data

How the results depend on the processing

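The median log2 fold change of the members was below 0 in each alternative run, from -0.19 (without Shh replicate 1) to -0.041 (length offset). Of 756 values of 54 named genes under an alternative, 23 changed sign, in 8 genes. The 0 genes called became 6 with DESeq2, 1 with no filter, 1 with the length offset, 5 with the replicate block and length offset, 1277 at an unadjusted p, and 0 to 195 when 1 library was left out (195 without Shh replicate 1, 3 without Shh replicate 2, 2 without vehicle replicate 3 and 1 without Shh replicate 3). The 0 members called became 3 with DESeq2 (0 without its own filter), 41 at an unadjusted p and 0 to 8 when 1 library was left out. The 41 members lower at an unadjusted p became 18 with the length offset, 22 with the replicate block and length offset (which has *Rpl4* as 1 member higher), and 16 to 68 when 1 library was left out. They were 16 without vehicle replicate 1, against 2.58% of all genes, 24 without vehicle replicate 2 (2.93%) and 68 without Shh replicate 1 (10.4%). With the replicate block alone they were 51 (6.08%), among them all 41. Same-numbered libraries correlated at -0.040, -0.054 and 0.098 in their deviations from the group means, so the numbers are not taken to pair them.

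The median of the elongation factor list was 0.00052 with the length offset and 0.000407 with the block too. That of the biogenesis list was 0.0054 and 0.0050, and -0.011 to 0.022 when 1 library was left out. The difference of the mean log2 level of large and small subunit genes was 0.011, where the ratio of sums gave -0.0051. The ratio of *Rpl7l1* to *Rpl7* was -0.050 with the length offset, and that of *Rpl22l1* to *Rpl22* ranged over -0.025 to 0.070 when 1 library was left out. With the length offset, alone and with the block, *Rpl22l1* was at 0.0041 and 0.0023, *Rpl23a* at 0.017 and 0.017, *Rpl3* at 0.0042 and 0.00367, *Rpl34* at 0.079 and 0.077, *Rpl38* at 0.040 and 0.040, *Rpl4* at 0.054 and 0.054 and *Rps26* at 0.017 and 0.017. *Rpl4* was at 0.0010 with a filter of 5 CPM and *Rpl37* at -0.11 with its copy. When 1 library was left out, *Rpl34* ranged from -0.15 to 0.048, *Rpl37* from -0.066 to 0.18, *Rpl38* from -0.19 to 0.0024 and *Rpl4* from -0.024 to 0.028. The cause of these changes was not tested.

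With 3 libraries a group and totals of 20253781 to 20335463 counts, differences of the size of the members' median did not pass the adjusted threshold gene by gene. Summed copies and DESeq2 without its filter are alternatives added after seeing the data.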
